A study of Mus musculus with 20 samples.

Results

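The livers of 20 obese mice were examined for 10 listed genes: 8 that glucocorticoids are known to induce, namely Sgk1, Zbtb16, Fkbp5, Klf9, Tsc22d3, Dusp1, Tat and Sds, the glucocorticoid receptor gene Nr3c1, and Hsd11b1, whose enzyme makes active glucocorticoid inside the cell. A member was taken as the probe set that the probe-to-gene table assigns to its symbol. That gave 1 probe set for each of 9 genes, out of 19505 genes with a probe set, and all 9 were among the 11844 genes bright enough to test. Sds, which encodes the serine-degrading enzyme serine dehydratase, was not analysed here.

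The mice were male ob/ob animals, which make no leptin and become obese and insulin resistant. There were 4 groups of 5 mice each: filtered air, metformin (a glucose-lowering drug, taken with the water), PM2.5 (airborne fine particles), and both treatments at once, the combined group. The PM2.5 mice spent 6 hours of each day in an exposure chamber over 2 weeks. Every mouse, controls included, carried the ob/ob genotype, so no lean mouse was compared. The labels give neither age, nor metformin dose, nor hour of collection, and they do not say whether the mice without PM2.5 sat in a chamber, so particles and chamber stay cannot be told apart. The labels name no air for the metformin group, which was taken as mice without PM2.5. Mice are numbered within a group only to name them, and equal numbers pair no mice.

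Glucocorticoids, corticosterone in mice, bind a receptor held in the cytoplasm by heat shock protein 90 and its partners. The loaded receptor enters the nucleus, where it binds paired half-sites in DNA and switches on genes that restrain the hormone's own signal (Fkbp5), dampen inflammation (Tsc22d3, Dusp1) and, in the liver, support glucose output from amino acids (Tat, and the gluconeogenic Pck1). The hormone in blood is carried by corticosteroid-binding globulin, and within hepatocytes the enzyme encoded by Hsd11b1 turns inactive 11-dehydrocorticosterone back into corticosterone.

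Promoter sequences are printed for Sgk1, Klf9 and Fkbp5, since these 3 genes differed among the groups and have windows in the reference table. In RefSeq's windows on mouse build GRCm38.p6, each reaching from 250 bases before to 50 after a start, 7 of the 10 genes matched, with 14 windows. A 13-base form of the receptor's paired site, GNACANNNTGTNC (N is any base, and the form reads the same on both strands), was present in 156 of all 32851 windows, which is 0.475%. Among the members it was present in 1 window, that of an Sgk1 start, from 188 to 176 bases before it. The other Sgk1 windows lack the form, and the Sgk1 window printed here was picked because it holds it. Klf9 and Fkbp5 have 1 window each. The half-site AGAACA, on either strand, was present in 19% of all windows and in 4 member windows, 3 of Sgk1 and 1 of Tsc22d3. The paired form in Sgk1 overlaps such a half-site. The 250 bases before each start are given 5′ to 3′ on the gene's strand, with the paired form in capitals. A match of letters is a description of the sequence, not a measured binding site.
Sgk1, chr10:21993640-21993889, plus strand: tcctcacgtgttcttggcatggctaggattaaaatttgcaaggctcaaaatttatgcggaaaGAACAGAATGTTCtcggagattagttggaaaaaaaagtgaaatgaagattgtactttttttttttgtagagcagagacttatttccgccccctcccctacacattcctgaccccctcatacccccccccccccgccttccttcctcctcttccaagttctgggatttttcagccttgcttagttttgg
Klf9, chr19:23140976-23141225, plus strand: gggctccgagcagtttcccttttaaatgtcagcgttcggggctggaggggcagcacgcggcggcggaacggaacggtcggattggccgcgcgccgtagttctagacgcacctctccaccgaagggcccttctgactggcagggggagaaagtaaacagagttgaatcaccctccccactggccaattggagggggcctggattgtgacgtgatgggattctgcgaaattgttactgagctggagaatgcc
Fkbp5, chr17:28486150-28486399, minus strand: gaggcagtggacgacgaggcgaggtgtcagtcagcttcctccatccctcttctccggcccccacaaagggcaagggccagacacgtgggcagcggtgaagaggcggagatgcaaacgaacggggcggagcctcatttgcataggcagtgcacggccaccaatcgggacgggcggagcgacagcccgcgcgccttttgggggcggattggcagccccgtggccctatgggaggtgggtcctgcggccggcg
Neither the Klf9 nor the Fkbp5 window holds the paired form, which says only that these letters are not in this window.

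Each value is the log2 signal of 1 array, 1 array per mouse, so that a difference of 1 is a ratio of 2. Array medians lay between 4.77 and 4.92, and the negative-control probe sets had a mean median of 4.49 and a mean 95th percentile of 8.36. The 9 members' means over the 20 arrays all lay above 8.36. Mice 2 and 4 of the combined group had the highest negative-control medians of the 20 arrays, 4.79 and 4.69. The medians of all metformin arrays (4.45 to 4.54) and all combined-group arrays (4.44 to 4.79) lay above all filtered-air arrays (4.36 to 4.43). A fit with this median as a covariate therefore cannot fully separate it from group, and a call lost there may reflect that overlap. Hepatocyte markers were near the top of the scale, with 5 of 5 above 8.36 and a mean level per mouse of 18.1 to 18.3. No marker of T and NK cells (0 of 7), B cells (0 of 5) or neutrophils (0 of 6) lay above 8.36. In RNA from whole liver, fewer cells of a type and less RNA per cell cannot be told apart.

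Rose and fell are written only of genes whose adjusted p in limma's model of the 4 groups, with Benjamini-Hochberg adjustment over the 11844 genes, was under 0.05. Errors after ± are standard errors of a log2 difference, and intervals are 95% intervals of 1 gene without adjustment. Sgk1, Klf9, Fkbp5 and Zbtb16 differed among the 4 groups, 4 of 9 members against 32.1% of all genes tested. Hsd11b1, Dusp1, Tsc22d3, Tat and Nr3c1 did not pass. The patterns of the 4 that passed were not alike: Sgk1 was high in the PM2.5 group alone, whereas Zbtb16, Fkbp5 and Klf9 had their lowest mean in filtered air, and the other 3 groups did not differ from each other by the test.

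**Figure D1:**
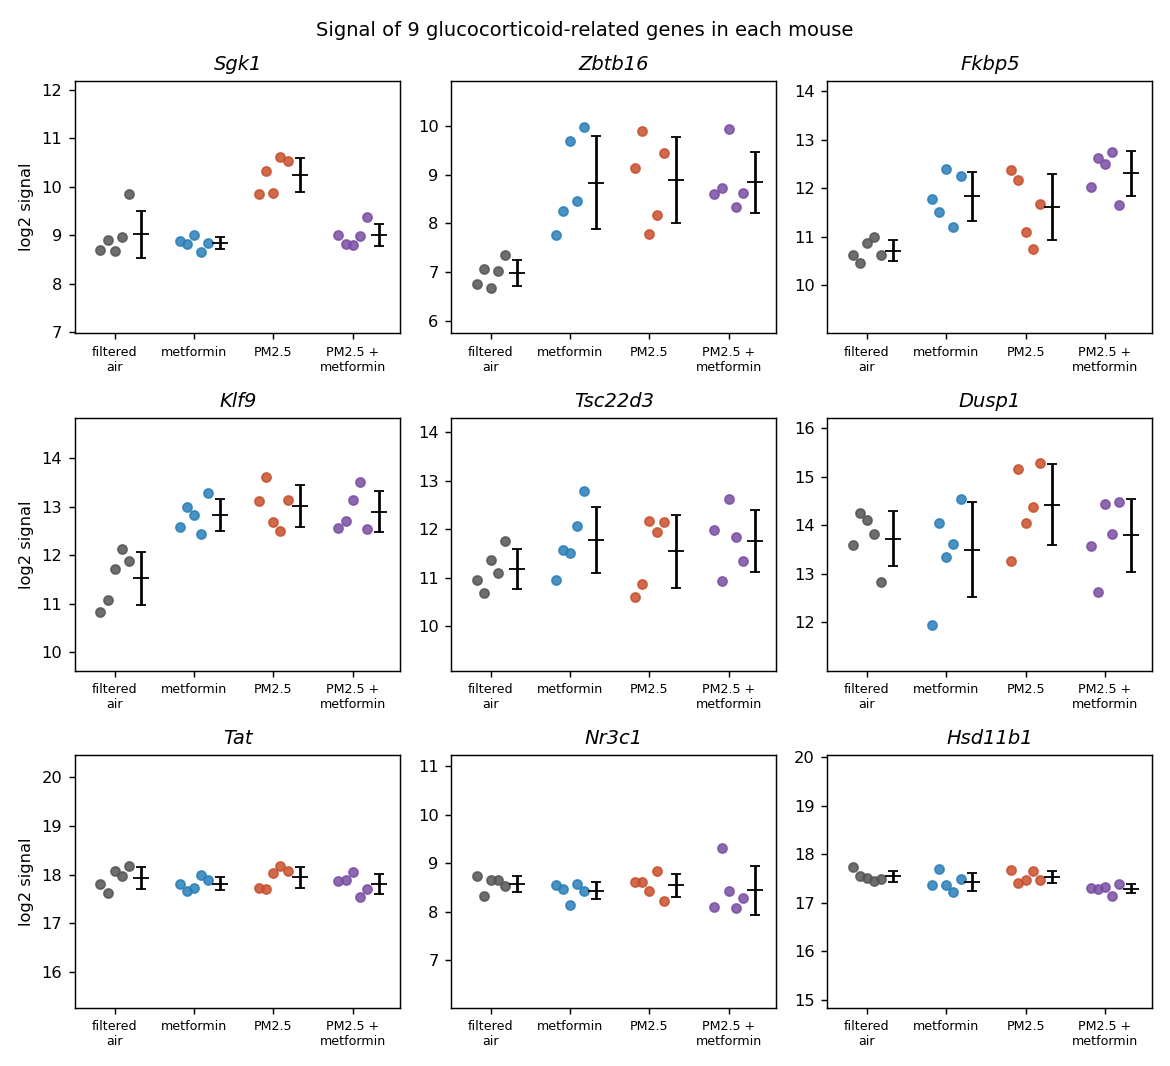
Log2 signal of each of the 9 measured members in every mouse (points) with the group mean and its SD, for the filtered-air, metformin, PM2.5 and combined groups, 5 mice each. Sgk1 lies at 9.85 or higher in all 5 PM2.5 mice, and every Zbtb16 and Klf9 value of the 15 mice outside filtered air lies above all 5 filtered-air values.

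Sgk1 encodes a serum- and glucocorticoid-induced kinase that regulates ion transport and cell survival. With PM2.5 its signal was 9.85, 10.33, 9.88, 10.61 and 10.53. In filtered air it was 8.70, 8.91, 8.68, 8.97 and 9.86, and with metformin alone 8.88, 8.81, 9.005, 8.66 and 8.84. Combined-group mice had 9.01, 8.82, 8.81, 8.99 and 9.37. All PM2.5 mice stood above all metformin and all combined-group mice, and only filtered-air mouse 5, at 9.86, reached the lowest PM2.5 mouse. The means were, from low to high, 8.84 with metformin, 8.999 in the combined group, 9.02 in filtered air and 10.24 with PM2.5, and the 3 lowest did not differ by the test.

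Sgk1 rose with PM2.5 by 1.22 ± 0.20 over filtered air, a ratio of 2.32 (limma, adjusted p = 0.00195). It was 1.40 ± 0.20 higher with PM2.5 than with metformin (adjusted p = 0.000766). With metformin added to PM2.5 it fell by 1.24 ± 0.20 relative to PM2.5 alone, a ratio of 2.36 (adjusted p = 0.000996). The combined group differed from filtered air by -0.02 ± 0.20, with an interval of -0.44 to 0.39, and metformin alone by -0.18 ± 0.20. The interaction (the effect of adding metformin in PM2.5 mice less its effect in mice without PM2.5) was -1.05 ± 0.28 and did not pass (adjusted p = 0.110). Without filtered-air mouse 5 it was -1.26 and passed (adjusted p = 0.0378), as it did without combined-group mouse 5 (-1.15, adjusted p = 0.0339).

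Marker levels of other liver cells also differed among the groups. The mean level per mouse of 9 Kupffer cell and macrophage markers ran from 9.69 to 10.4 with PM2.5, 9.19 to 10.1 in filtered air, 8.89 to 9.27 with metformin and 7.43 to 10.3 in the combined group. Of the 9 markers, 6 had means above 8.36, while Timd4, Adgre1 and Marco lay below it. None of the 9 passed between PM2.5 and filtered air in the main fit (limma, 3 at an unadjusted p under 0.05, all higher, and all 9 with values above 0). With array weights 3 rose there (11.6% of all genes passed), and on only the compared arrays 2 (6.50%). With trend and robust options, with the negative-control covariate, or without combined-group mice 2 and 4, 1 of the 9 rose. None rose under the other filters and normalizations or with averaged probe sets. Relative to PM2.5, 7 fell in the combined group, where 4.73% of all genes tested were lower. Without combined-group mice 2 and 4, 1 of the 9 fell, where 1.74% of all genes passed. With the negative-control covariate 0 fell, where 0.667% passed. The fit on only the compared arrays had 2 of the 9 lower, and that with array weights 8. Of 8 markers of sinusoidal endothelium, 1 rose with PM2.5 over filtered air, where 2.67% of all genes were higher. That count was 0 with no filter, with median centring and with the covariate. With PM2.5 against metformin 3 were higher (0.946% of all genes). This became 1 with no filter or median centring, 2 on only the compared arrays and 4 with array weights. In the combined group relative to PM2.5, 4 of these endothelial markers fell (1 without combined-group mice 2 and 4, and 0 with the covariate). Their mean level ran from 9.61 to 10.1 with PM2.5, 9.39 to 9.62 in filtered air, 8.99 to 9.41 with metformin and 8.58 to 9.78 in the combined group. The fall of Sgk1 in the combined group relative to PM2.5 passed in each of 10 alternative settings, the covariate and the fit without mice 2 and 4 among them, with an adjusted p of at most 0.0336 in limma. The part of these cells in the Sgk1 values was not tested.

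Zbtb16 encodes the transcription factor PLZF, a repressor that is among the genes most strongly induced by glucocorticoids in several tissues. In filtered air its signal was 6.76, 7.07, 6.68, 7.03 and 7.36, and with metformin 7.76, 8.26, 9.70, 8.47 and 9.99. With PM2.5 it was 9.14, 9.90, 7.77, 8.18 and 9.45. Combined-group mice had 8.61, 8.73, 9.94, 8.34 and 8.62. Every filtered-air value lay below every other value. All 5 filtered-air values, and 5 of the other 15, were under the negative controls' 95th percentile of 8.36, so the size of a difference from filtered air is uncertain and no ratio is given. The spread was wider in the other groups, with SDs of 0.96, 0.89 and 0.63 against 0.27 in filtered air, and the test takes 1 spread for all 4. The means rose from 6.98 in filtered air to 8.84 with metformin, 8.85 in the combined group and 8.89 with PM2.5, where the last 3 did not differ.

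Zbtb16 rose with PM2.5 by 1.91 ± 0.41 (limma, adjusted p = 0.0103), and with metformin by 1.86 ± 0.41 (adjusted p = 0.0173). Without metformin mouse 3 the metformin difference was 1.64 and did not pass (adjusted p = 0.0572). The combined group stood 1.87 ± 0.41 above filtered air (adjusted p = 0.00148) and differed from PM2.5 alone by -0.04, with an interval of -0.90 to 0.81. The interaction was -1.90 ± 0.58 and did not pass (adjusted p = 0.160).

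Klf9 encodes a zinc finger transcription factor that is a direct target of the receptor in many cell types. In filtered air its signal was 10.84, 11.08, 11.71, 12.12 and 11.88, and with metformin 12.58, 12.99, 12.83, 12.44 and 13.29. With PM2.5 it was 13.11, 13.61, 12.68, 12.50 and 13.14. The combined group had 12.57, 12.71, 13.14, 13.51 and 12.54. No filtered-air mouse reached the lowest of the other 15, while those 3 groups overlapped throughout. The means were 11.52 in filtered air, 12.83 with metformin, 12.89 in the combined group and 13.01 with PM2.5.

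Klf9 rose with PM2.5 by 1.48 ± 0.26, a ratio of 2.79 (limma, adjusted p = 0.00238), with metformin by 1.30 ± 0.26 (adjusted p = 0.00708) and in the combined group by 1.37 ± 0.26 (adjusted p = 0.000395), each against filtered air. The combined group differed from PM2.5 alone by -0.11 ± 0.26, with an interval of -0.64 to 0.42. The interaction was -1.42 ± 0.36 and did not pass (adjusted p = 0.0977). Both Zbtb16 and Klf9 lay higher in all 15 other mice than in all 5 filtered-air mice, which held for 0.616% of the genes tested, 73 in number. These 3 comparisons share the 5 filtered-air mice, so a low value in that group enters each of them.

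Fkbp5 encodes a co-chaperone that lowers the receptor's affinity for the hormone, so that its induction forms a feedback loop. In filtered air its signal was 10.62, 10.45, 10.88, 10.99 and 10.62, and with metformin 11.77, 11.52, 12.40, 11.21 and 12.26. With PM2.5 it was 12.38, 12.16, 11.10, 10.76 and 11.67. The combined group had 12.02, 12.62, 12.51, 12.74 and 11.65. The metformin and combined-group mice all stood above the filtered-air mice, whereas PM2.5 mouse 4 lay within the filtered-air range. The means were 10.71 in filtered air, 11.61 with PM2.5, 11.83 with metformin and 12.31 in the combined group.

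Fkbp5 rose in the combined group by 1.60 ± 0.28 over filtered air (limma, adjusted p = 0.000266) and with metformin by 1.12 ± 0.28 (adjusted p = 0.0331). With PM2.5 alone the difference was 0.90 ± 0.28 with an interval of 0.31 to 1.49, and it did not pass (adjusted p = 0.0635). The PM2.5 value is sensitive to single mice: it passed in 3 of 20 fits that each left out 1 mouse, those without PM2.5 mouse 3, PM2.5 mouse 4 or combined-group mouse 5, and had an adjusted p of 0.185 without PM2.5 mouse 2. The metformin value passed in 14 of those 20 fits. It was lost without filtered-air mouse 1, 2, 3 or 5 and without metformin mouse 3 or 5, with 0.101 the highest adjusted p, and also with the negative-control median as a covariate (0.89, adjusted p = 0.138). The combined group stood 0.69 ± 0.28 above PM2.5 (adjusted p = 0.115) and 0.48 ± 0.28 above metformin (adjusted p = 0.267), and neither passed. The first of these passed without combined-group mouse 5 (0.86, adjusted p = 0.0410).

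Tsc22d3 encodes GILZ, a leucine zipper protein that mediates part of the anti-inflammatory action of glucocorticoids. Its signal was 10.96, 10.68, 11.38, 11.10 and 11.76 in filtered air and 10.60, 10.88, 12.18, 11.94 and 12.15 with PM2.5. Metformin mice had 10.95, 11.57, 11.51, 12.06 and 12.78, and combined-group mice 11.98, 10.94, 12.62, 11.85 and 11.36. All 4 groups overlapped. Its differences from filtered air were 0.37 ± 0.36 with PM2.5, 0.60 ± 0.36 with metformin and 0.57 ± 0.36 in the combined group, and none passed (limma, adjusted p = 0.572, 0.381 and 0.226). The intervals reached up to 1.11, 1.34 and 1.31, so a rise as large as that of Fkbp5 with metformin lies within 2 of the 3.

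Dusp1 encodes a phosphatase that switches off stress-activated MAP kinases and responds to glucocorticoids as well as to stress itself. Its signal was 13.26, 15.16, 14.05, 14.38 and 15.28 with PM2.5, and 13.60, 14.26, 14.10, 13.83 and 12.83 in filtered air. With metformin it was 11.93, 14.04, 13.34, 13.62 and 14.53, and in the combined group it was 13.57, 12.63, 14.44, 13.83 and 14.48. The 3 highest values belonged to PM2.5 and metformin mice, and every group spanned more than 1 log2 unit. The PM2.5 difference from filtered air was 0.70 ± 0.44 (limma, adjusted p = 0.357) and that from metformin 0.93 ± 0.44 (adjusted p = 0.310), and neither passed.

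Tat encodes tyrosine aminotransferase, the classical glucocorticoid-induced liver enzyme, which starts tyrosine breakdown. Its mean of 17.87 was higher than that of 99.8% of genes with a probe set, near the top of the signal scale. Filtered-air mice ran from 17.61 to 18.18, PM2.5 mice from 17.70 to 18.19, metformin mice from 17.66 to 17.98 and combined-group mice from 17.53 to 18.05. The groups overlapped fully, and the PM2.5 difference from filtered air was 0.01 ± 0.14 with an interval of -0.28 to 0.30 (limma, adjusted p = 0.9748). Whether signal this bright still follows the amount of RNA was not tested.

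**Figure D2:**
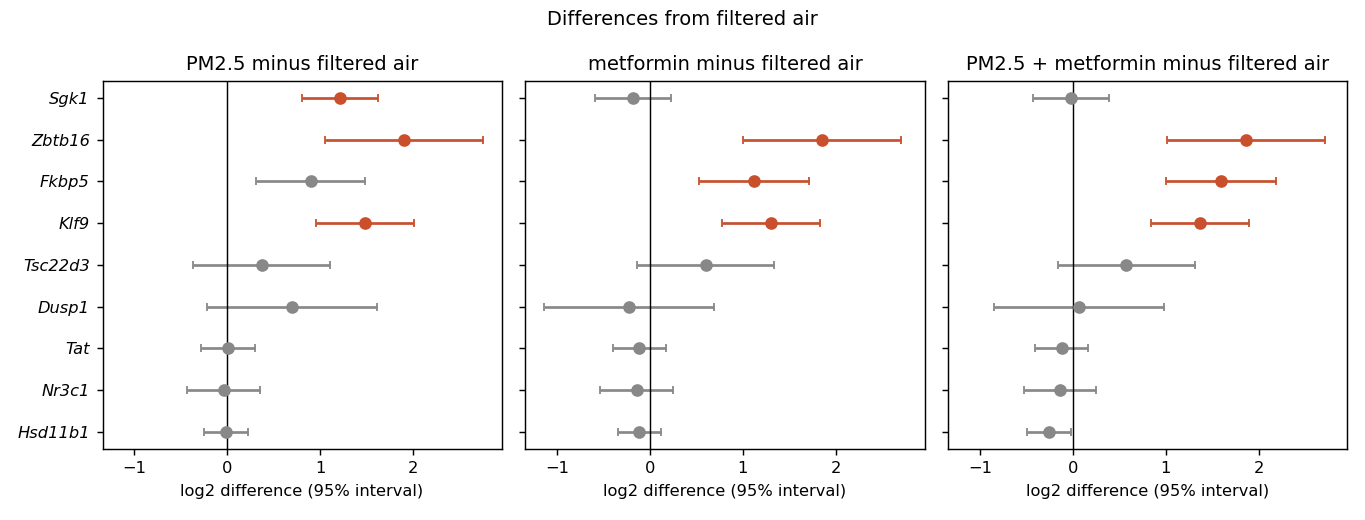
Log2 difference from filtered air of each measured member with PM2.5, with metformin and in the combined group; points are limma estimates, lines are 95% intervals, and red marks an adjusted p under 0.05. Zbtb16 and Klf9 are red in all 3 panels, Sgk1 in the PM2.5 panel at 1.22, and Fkbp5 in the metformin and combined-group panels.

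Nr3c1 encodes the glucocorticoid receptor. Its signal ran from 8.32 to 8.73 in filtered-air mice, from 8.23 to 8.83 in PM2.5 mice, from 8.14 to 8.58 in metformin mice and from 8.07 to 9.32 in combined-group mice. Only combined-group mouse 2, at 9.32, lay apart, on 1 of the 2 arrays with the highest negative-control medians, and the groups overlapped. The differences from filtered air were -0.04 ± 0.19 with PM2.5, -0.15 ± 0.19 with metformin and -0.14 ± 0.19 in the combined group, and none passed (limma, adjusted p = 0.931, 0.727 and 0.603). The interval with PM2.5 was -0.43 to 0.35. Its mean of 8.497 lies just above the negative controls' 95th percentile.

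Hsd11b1 encodes the reductase that regenerates active glucocorticoid, and its signal was near the top of the scale (mean 17.45). In filtered air it was 17.73, 17.55, 17.51, 17.44 and 17.49. Combined-group values were 17.29, 17.27, 17.32, 17.15 and 17.39. With metformin it ran from 17.23 to 17.70 and with PM2.5 from 17.40 to 17.68. All combined-group mice lay below all filtered-air and all PM2.5 mice, while the metformin mice spanned both. The combined-group difference was -0.26 ± 0.11 from filtered air (limma, adjusted p = 0.0804) and -0.25 ± 0.11 from PM2.5 (adjusted p = 0.163), and neither passed. With the negative-control median as a covariate the first was -0.13 with an adjusted p of 0.603.

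Counted over the 9 members, 3 rose and 0 fell with PM2.5 against filtered air, in a comparison where 5.17% of all genes tested passed. The member median there was 0.70 against 0.02 over all genes. The members were chosen with earlier results of these data known, so these counts are a description and not an independent test. With metformin against filtered air 3 rose and 0 fell, against 3.15% of all genes, and the median was -0.12 against 0.00, with 4 members above 0. In the combined group against filtered air 3 rose and 0 fell, which is 33.3% of the members and near the 34.9% of all genes that passed. The combined group against PM2.5 had 1 member lower (11.7% of all genes), and PM2.5 against metformin 1 higher (1.59%). In the combined group against metformin, limma called 0 of the 9, with 0 at an unadjusted p under 0.05, where 16.3% of all genes passed. The interaction called 0 of 9, with Sgk1, Zbtb16 and Klf9 at an unadjusted p under 0.05, and 0.186% of all genes passed. With array weights 2 members passed it, Sgk1 at -1.18 (adjusted p = 0.0404) and Klf9 at -1.47 (adjusted p = 0.0486).

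Ranges of the groups were compared as well. Between PM2.5 and filtered air the mice did not overlap for 2 members, both higher, against 6.94% of all genes. Between metformin and filtered air they did not overlap for 3, all higher, against 6.75%. Against filtered air, the combined group had 3 members higher and 1 lower without overlap, against 20.8%. Against PM2.5 the combined group was lower without overlap for Sgk1 and Hsd11b1 (6.34% of all genes), and PM2.5 stood above metformin for Sgk1 (4.23%).

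Within groups the members did not vary together as a set. After subtracting each group's mean, the 36 pairs of members had correlations over the 20 mice from -0.39 to 0.67, with a median of -0.00 and 18 pairs above 0. The highest was Fkbp5 with Klf9, with Pearson's r = 0.67 (permutation p = 0.00137, adjusted over 36 pairs 0.0493) and Spearman's rho = 0.68 (permutation p = 0.00139, adjusted 0.0266). Without the 2 mice farthest from the median r was 0.68. Tsc22d3 with Tat followed at r = 0.66 (permutation p = 0.00402, adjusted 0.0724) and rho = 0.71 (permutation p = 0.00148, adjusted 0.0266), and r was 0.65 without the 2 farthest mice. Zbtb16 had r = 0.60 with Fkbp5 (permutation p = 0.0283, adjusted 0.255) and 0.51 with Klf9 (permutation p = 0.0209, adjusted 0.251). Neither passed after adjustment, though both were positive, as was Fkbp5 with Klf9. Both genes of a pair were read on the same array.

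**Figure D3:**
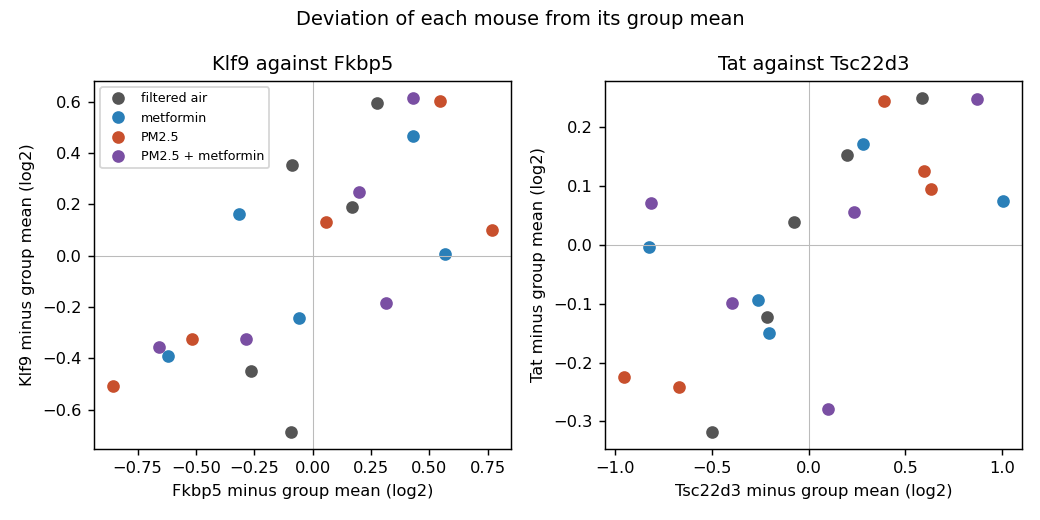
Deviation of each mouse from its group mean on the log2 scale for Klf9 against Fkbp5 and for Tat against Tsc22d3, coloured by group, 20 mice. Mice above their group mean in Fkbp5 tended to lie above it in Klf9 (r = 0.67), and likewise for Tsc22d3 and Tat (r = 0.66).

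The wider set of glucocorticoid targets gives context for the members. Of 26 other listed targets 23 were tested, and with PM2.5 against filtered air 9 rose, 0 fell (limma, 1 lower at an unadjusted p under 0.05) and 14 did not pass, against 5.17% of all genes tested that passed. The 9 became 6 without filtered-air mouse 1 or without PM2.5 mouse 2, and 5 without PM2.5 mouse 5. The 23 targets had a median of 0.72 against 0.02 over all genes, and 22 of 23 lay above 0. This list was chosen with earlier results of these data known. Its counts and medians, here and below, are therefore a description and not an independent test. Angptl4, which inhibits lipoprotein lipase, rose by 2.46 ± 0.38 (adjusted p = 0.00138), and Pck1, the cytosolic enzyme that commits carbon to glucose synthesis, by 1.26 ± 0.20 (adjusted p = 0.00192). Mt1 and Mt2, which encode metallothioneins that bind metals, rose by 2.03 ± 0.36 and 3.08 ± 0.60 (adjusted p = 0.00276 and 0.00525). These genes also answer to other signals, among them fasting, metals and inflammation.

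With metformin against filtered air 2 of the 23 rose and 0 fell (limma, 9 higher and 3 lower at an unadjusted p under 0.05), with a median of 0.42 against 0.00 and 3.15% of all genes called. Pck1 was 1.27 ± 0.20 higher (adjusted p = 0.00132) and Angptl4 1.94 ± 0.38 higher (adjusted p = 0.00708). Against filtered air 9 rose and 1 fell in the combined group, which is 43.5% of the list against 34.9% of all genes, with a median of 0.44 against 0.01. With the negative-control covariate 6 rose and 0 fell, where 8.90% of all genes passed. Nfkbia, the inhibitor of NF-kappaB, rose by 1.39 ± 0.19 (adjusted p = 2.69e-05), and Pck1 by 1.48 ± 0.20 (adjusted p = 3.24e-05). The 1 that fell was Sesn1, by 0.80 ± 0.23 (adjusted p = 0.00862), named after its values were seen.

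Relative to PM2.5 alone, 1 of the 23 targets rose in the combined group and 1 fell. Pdk4, the kinase that shuts off pyruvate oxidation, fell by 2.66 ± 0.41 (limma, adjusted p = 0.000742). Like that of Sgk1, its mean was higher with PM2.5 alone (11.05) than in filtered air (9.39) or the combined group (8.38). The combined-group mean lies near the negative controls' 95th percentile of 8.36, so the size of the fall is uncertain. Nfkbia rose by 0.58 ± 0.19 (adjusted p = 0.0473), a call kept in 5 of 20 fits without 1 mouse. With PM2.5 against metformin 3 were higher, among them Pdk4 by 2.92 ± 0.41 (adjusted p = 0.000718). The Pdk4 mean with metformin was lower than in the combined group, so the size of that difference is uncertain too. Angptl4 was the target whose interaction passed, at -2.80 ± 0.54 (adjusted p = 0.0300). That call was kept in 14 of the 20 fits without 1 mouse and reached an adjusted p of 0.0799 without PM2.5 mouse 1.

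**Figure D4:**
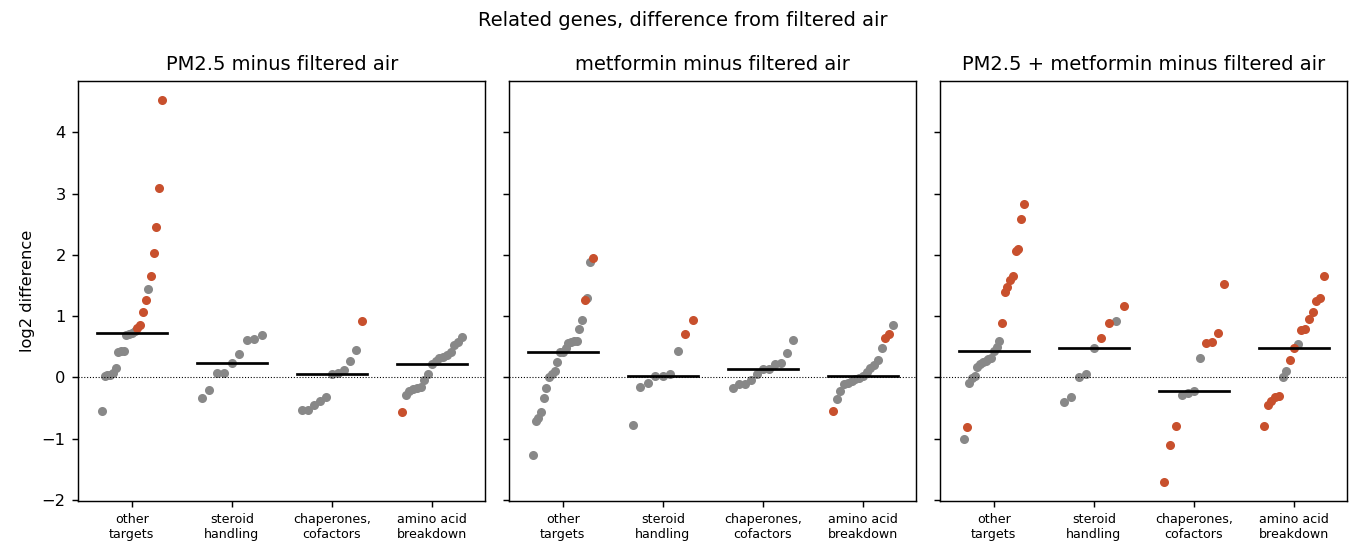
Log2 difference from filtered air of every tested gene in 4 lists (other glucocorticoid targets, corticosteroid handling, receptor chaperones and cofactors, amino acid breakdown) with PM2.5, with metformin and in the combined group; points are genes sorted by value, red marks an adjusted p under 0.05, and the bar is the list's median. Other targets have 9 of 23 red with PM2.5 (median 0.72) and 2 of 23 with metformin, while corticosteroid handling has 0 of 9 red with PM2.5.

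Genes that bind, convert or clear corticosteroids were tested for 9 of 12. With PM2.5 none passed (limma, 2 higher and 0 lower at an unadjusted p under 0.05). With metformin 2 rose, which is 22.2% of the list against 3.15% of all genes. In the combined group 3 rose, which is 33.3% of the list and near the 34.9% of all genes. H6pd, whose enzyme supplies the NADPH that Hsd11b1 needs inside the endoplasmic reticulum, had a mean of 11.78 in filtered air, 12.49 with metformin, 12.17 with PM2.5 and 12.68 in the combined group. It rose with metformin by 0.70 ± 0.16 (adjusted p = 0.0223) and in the combined group by 0.89 ± 0.16 (adjusted p = 0.000353). The metformin call was kept in 16 of 20 fits without 1 mouse, and its highest adjusted p was 0.0718, without metformin mouse 3. Cyp3a13, a steroid-hydroxylating cytochrome, rose with metformin by 0.94 ± 0.15 (adjusted p = 0.00103) and in the combined group by 0.64 ± 0.15 (adjusted p = 0.00201). With the negative-control covariate neither H6pd with metformin (adjusted p = 0.0796) nor Cyp3a13 in the combined group (adjusted p = 0.108) passed. Abcb1b, an efflux pump that carries steroids among many substrates, rose in the combined group by 1.17 ± 0.45 (adjusted p = 0.0488), a call kept in 6 of 20 fits without 1 mouse. Serpina6, which encodes corticosteroid-binding globulin and is named after its values were seen, differed with metformin by -0.77 ± 0.26 and did not pass (adjusted p = 0.109).

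Among the receptor's chaperones and cofactors, 11 of 15 were tested. With PM2.5, 1 rose: Nrip1, a corepressor of nuclear receptors, by 0.93 ± 0.14 (limma, adjusted p = 0.00138). In that comparison 5.17% of all genes passed. Combined treatment had 4 higher and 3 lower than filtered air, in a comparison where 18.7% of all genes were higher and 16.2% lower. Ncoa1, a coactivator, rose by 1.52 ± 0.22 (adjusted p = 4.86e-05). Hsp90aa1, the inducible form of heat shock protein 90 that holds the receptor ready for the hormone, fell by 1.70 ± 0.35 (adjusted p = 0.000954), and Ppid, a co-chaperone of the same complex, by 1.10 ± 0.22 (adjusted p = 0.000738). With the negative-control covariate the last 2 did not pass (adjusted p = 0.113 and 0.0937), and the list had 1 higher and 0 lower.

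Tat stands among enzymes of amino acid breakdown, of which 17 of 20 others were tested. With PM2.5, 0 rose (limma, 4 at an unadjusted p under 0.05) and 1 fell, Kynu of the kynurenine path, by 0.57 ± 0.14 (adjusted p = 0.0222). In that comparison 5.17% of all genes passed. The Kynu call was kept in 16 of 20 fits without 1 mouse, with an adjusted p of 0.0867 without PM2.5 mouse 2. With metformin 2 rose and 1 fell, 17.6% of the list against 3.15% of all genes. Without metformin mouse 3 or with the negative-control covariate 0 rose and 0 fell (1.33% and 1.24% of all genes passed). The 2 that rose were 1 without filtered-air mouse 1 and 0 without filtered-air mouse 2, and the 1 that fell did not pass without filtered-air mouse 1, 3 or 5. With both treatments 9 rose and 5 fell, where 34.9% of all genes passed. Without combined-group mice 2 and 4 the counts were 5 and 2 (21.5% of all genes), and with the covariate 2 and 1 (8.90%). The alanine aminotransferases Gpt and Gpt2 rose there by 1.66 ± 0.28 and 0.95 ± 0.15 (adjusted p = 0.000168 and 0.000128).

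Several members follow the time of day in liver, as does corticosterone itself, and the hour of collection is not given. Of 15 clock genes 14 were tested. With PM2.5 against metformin 3 were higher and 3 lower, 42.9% of the 14, where 1.59% of all genes passed. Against filtered air 1 rose with PM2.5 (5.17% of all genes passed), and 2 rose and 2 fell with metformin (3.15%). In the combined group 5 rose, where 34.9% of all genes passed. The 5 became 1 without combined-group mice 2 and 4 and 0 with the negative-control covariate, and the counts with PM2.5 and with metformin also moved by over 1.5 times when single mice were left out, to between 0 and 3 higher with PM2.5 and between 1 and 4 higher with metformin. Arntl, which encodes the clock activator BMAL1, rose with PM2.5 by 1.09 ± 0.26 (limma, adjusted p = 0.0196, kept in 17 of 20 fits without 1 mouse and 0.0685 without PM2.5 mouse 2) and fell with metformin by 1.57 ± 0.26 (adjusted p = 0.00190). Dbp, a clock output gene that peaks opposite to Arntl, rose with metformin by 1.54 ± 0.32 (adjusted p = 0.0118, and 0.0507 with the negative-control covariate) and was 2.51 ± 0.32 lower with PM2.5 than with metformin (adjusted p = 0.000377). In the list of immediate early genes, which answer to handling and stress, 1 of 10 rose with PM2.5 (Myc, by 1.06 ± 0.24, adjusted p = 0.0125), 0 with metformin (0 at an unadjusted p under 0.05) and 4 in the combined group, which is 40% of the list, near the 34.9% of all genes (2 with the negative-control covariate). The part of collection time in the members' values was not tested.

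The genes most like each member were taken as the 2 tested genes with the highest Pearson correlation of log2 signal over the 20 arrays, given as a description. For Klf9 they were Enc1 (r = 0.916) and the gluconeogenic Pck1 (r = 0.916), and with group means subtracted these were 0.751 and 0.742. For Fkbp5 they were Brap (0.901) and Rab3ip (0.901). For Sgk1 they were Pip5k1a (0.868) and H3f3b (0.865), which dropped to 0.531 and 0.582 with group means subtracted. For Zbtb16 they were St3gal5 (0.863) and the interleukin 6 receptor gene Il6ra (0.845). Hsd11b1 was most like Mff (0.847) and Adhfe1 (0.842), and Tsc22d3 most like the clotting factor gene F11 (0.806) and Lpin2 (0.790). For Dusp1, Zbtb2 (0.769) and the stress gene Gadd45g (0.764) came first, for Nr3c1, Syngr1 (0.746) and Slc13a2 (0.720), and for Tat, Arhgef37 (0.719) and Ccn2 (0.699).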

How the data were processed

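Liver RNA of 20 mice was measured on 1 single-channel array each. The deposited values are log2 signals per probe set, made by the authors with Affymetrix Expression Console, per the submitters' processing notes. The version and summary method are not given in the sources used here. The series text names another array than the probe set identifiers belong to, and genes were taken from the annotation of those identifiers. Of 28846 probe sets 6640 were controls. Of the other 22206, 19572 had 1 gene, 0 several and 2634 none, and all 19572 symbols matched RefSeq. A gene with more than 1 probe set was represented by its brightest on average. A gene was tested if its mean signal exceeded log2 4.05, the 40th percentile. Precision is limited by the number of arrays.

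Differences were tested with limma 3.58.1 in R 4.3.3, in 1 model of the 4 groups, two-sided, with eBayes (5.68 prior and 16 residual degrees of freedom), in 7 comparisons and a moderated F test. The code was tested on simulated data. The labels do not say how mice were caged or in what batches they were processed. The p values measure the spread between these mice and take them as independent. An effect of cage, chamber or batch shared by a whole group cannot be told apart from its treatment. Correlations were taken on deviations from group means with 100000 permutations. All 10 members are named, and from each list at most the 4 genes with the lowest p per comparison that passed. The members and lists were chosen with earlier results of these data known. Alternatives were quantile normalization or median centring, testing all genes or only those above the 60th percentile, averaging a gene's probe sets, array weights, robust eBayes with a trend, only the compared arrays, the negative-control median as a covariate, leaving out combined-group mice 2 and 4, and leaving out each mouse in turn.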

Additional observations from a re-analysis of the deposited data

Results flagged for a closer look

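In 36 sets of 5 mice (9 members in 4 groups), the gap between the most extreme mouse and its nearest neighbour, divided by the range, was compared with the critical value of 0.71, which chance passes in about 1 set in 20, and 3 sets passed. Sgk1 was 9.86 in filtered-air mouse 5 (next 8.97, ratio 0.749). Zbtb16 was 9.94 in combined-group mouse 3 (next 8.73, ratio 0.756). Nr3c1 was 9.32 in combined-group mouse 2 (next 8.42, ratio 0.722).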

How the results depend on the processing

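Under the alternatives other than leaving out 1 mouse, the number of members that passed stayed within 1.5 times in every comparison except the interaction, where array weights gave 2 in place of 0. Leaving out 1 mouse at a time, the number ran from 3 to 4 with PM2.5 against filtered air, 1 to 3 with metformin (1 without metformin mouse 3), 1 to 2 in the combined group against PM2.5 (2 without combined-group mouse 5) and 0 to 1 for the interaction (1 without filtered-air mouse 5 or combined-group mouse 5). It stayed at 0 in the combined group against metformin, at 3 against filtered air, at 1 for PM2.5 against metformin and at 4 among the 4 groups. Of 63 member differences 11 passed and none of these changed sign. Of the 52 others 20 changed sign under some alternative, the largest of them 0.29 in size, and none passed after the change. For Fkbp5 the difference among the 4 groups was lost with the negative-control covariate (adjusted p = 0.0630), and Hsd11b1 passed in the combined group against filtered air with trend and robust options (adjusted p = 0.0349). No paired analysis was possible because the labels give no shared replicate numbers.

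The number of all genes that passed also moved with the setting. With the negative-control covariate the number of genes fell from 1383 to 79 in the combined group against PM2.5, from 1933 to 1009 against metformin, from 4136 to 1054 against filtered air, from 373 to 147 with metformin and from 3807 to 1598 among the groups, and rose from 22 to 44 for the interaction. Without combined-group mice 2 and 4 those of the combined group were 206, 499 and 2544, with 938 for PM2.5 against filtered air (612 with all mice), 2377 among the groups and 10 for the interaction. With only the compared arrays the combined group gave 509 against PM2.5 and 1021 against metformin. Array weights gave 1376 with PM2.5, 854 with metformin, 472 for PM2.5 against metformin (188 without weights) and 108 for the interaction, and no filter gave 121 for PM2.5 against metformin. Leaving out 1 mouse at a time, they ran from 208 (without PM2.5 mouse 2) to 759 for PM2.5 against filtered air, from 157 (without metformin mouse 3) to 487 with metformin, from 637 (without combined-group mouse 4) to 2143 (without its mouse 5) for the combined group against PM2.5, from 1138 (without its mouse 4) to 2407 against metformin, from 3394 to 4338 against filtered air, from 49 (without PM2.5 mouse 5) to 276 for PM2.5 against metformin, from 7 to 289 (without combined-group mouse 5) for the interaction and from 2961 to 4247 among the groups. Of 81 named list values none reversed in 2425 recomputed values, while 52 lost their call at least once.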
